A study of Rattus norvegicus with 4 samples.

Results

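Expression of the Wnt pathway was followed across 4 RNA-seq libraries of rat embryoid bodies, the aggregates that pluripotent cells form as they start to differentiate. The genes were chosen by symbol: all Wnt ligands, Frizzled receptors, Sfrp and Dkk antagonists, and a list of 19 further components, feedback genes and transcription factors. The rule matched 53 of the 32753 genes in the tables. Axin1 and Znrf3, which the rule also names, matched no row and are not analysed here. By role the 53 comprise 19 Wnt ligands, 9 Frizzled receptors, 2 co-receptors, 11 secreted or surface antagonists, 3 intracellular core components, 4 TCF/LEF transcription factors and 5 feedback and target genes.

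Both groups came from rat embryonic stem cells of the strain given as DASD, at differentiation day 4. One group was wild type (WT) and the other Kcnh2-/-, with 2 libraries each; Kcnh2 is the gene for the ERG1 potassium channel. All libraries shared the same culture: hanging drops for 2 days in a medium with CHIR9902 (0.75 µM), PD0325901 (0.1 µM) and Y27632 (10 µM), then laminin-coated plates for 24 hours with CHIR9902 and PD0325901 alone, then a fresh medium named DM for 1 day. CHIR9902 is spelled as in the labels and acts as an inhibitor of GSK3, PD0325901 inhibits MEK and Y27632 inhibits ROCK. Every library, WT included, had thus been exposed to a GSK3 inhibitor up to the last day. What the DM medium contained, whether the libraries of a group came from separate cultures, and how many Kcnh2-/- lines were used are not stated in the labels. The p-values therefore measure only the spread between these samples, which may be technical.

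In the canonical pathway, Wnt proteins bind a Frizzled receptor and an LRP co-receptor at the cell surface. Without a ligand, a cytoplasmic complex of APC, AXIN and the kinase GSK3 marks β-catenin for destruction. Ligand binding, or inhibition of GSK3, lets β-catenin accumulate and act with TCF/LEF factors on target genes, several of which encode inhibitors of the pathway itself. In the early embryo the pathway is needed to form the primitive streak and mesoderm, and in embryonic stem cells a GSK3 inhibitor helps to keep the undifferentiated state.

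The values are RPKM, in which read numbers are scaled for transcript length and library size, so levels can be set side by side between genes. Absolute read depth is unknown. Between 17610 and 17833 genes were above 0 in each library. Summed RPKM was 7.95e+07 and 1.09e+08 in the replicate 1 libraries of WT and Kcnh2-/-, and 1.17e+07 and 8.93e+06 in the replicate 2 libraries, with 90.3% to 99.5% of it on genes not matched to a protein-coding gene. Because the libraries divide by replicate number in this way, differences within each number are given beside the group differences, although the labels name no batch. Kcnh2 itself (rn6 chromosome 4, 7355573 to 7387253) was at 2.61 and 1.45 RPKM in the WT libraries and at 0.108 and 0.504 in the Kcnh2-/- libraries. Both Kcnh2-/- values lay below both WT values. On the log2(RPKM + 1) scale the difference, Kcnh2-/- minus WT, was -1.20 ± 0.43 (SE, limma adjusted p = 0.980). The gene entered the test, which asks for 1 RPKM in at least 2 libraries, only through WT. This direction was therefore set by the filter.

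No Wnt pathway gene differed between the genotypes beyond the threshold. Of the 53 genes, 25 reached 1 RPKM in at least 2 of the 4 libraries and entered the test (limma on log2(RPKM + 1), adjusted over all 12355 genes tested). At an adjusted p under 0.05, limma called 0 of the 25, against 14 of all genes tested (0.113%). At an unadjusted p under 0.05 there were 2, Sfrp1 and Sfrp2, both lower in Kcnh2-/-, against 3.38% of all genes tested in either direction. Adjusted p-values of 0.980 recur below because the adjustment gave most genes that same value.

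The direction of the values was uneven. The log2 difference, Kcnh2-/- minus WT, was negative for 23 of the 25 genes, against 49.6% of all genes tested, and its median was -0.61 over the 25 and 0.00524 over all genes tested. With each library left out in turn the median ran from -0.88 (without WT replicate 2) to -0.39 (without WT replicate 1), and the genes with a negative difference numbered 19 (without Kcnh2-/- replicate 2) to 22. Over all genes tested the median ran from -0.0564 to 0.0614 in these settings, and the share with a negative difference was not taken. With all 4 libraries, the log2 difference was -1 or below for 10 of the 25, against 3.09% of all genes tested. Within replicate 1 the median over the 25 was -0.76, and within replicate 2 it was -0.63. In 18 of the 25 the value was lower in Kcnh2-/- within both numbers, against 28.1% of all genes tested, and in 1 it was higher within both, against 30.8%. Groups that did not overlap were less frequent: 5 of the 25 (Wnt3, Lrp6, Sfrp1, Sfrp2 and Apc) were lower in both Kcnh2-/- libraries than in either WT library, near the 15.3% among all genes tested. Axin2 alone was higher without overlap, against 16.7%. Wnt3 entered the test only through its WT libraries, so a difference in that direction was set by the filter.

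**Figure D1:**
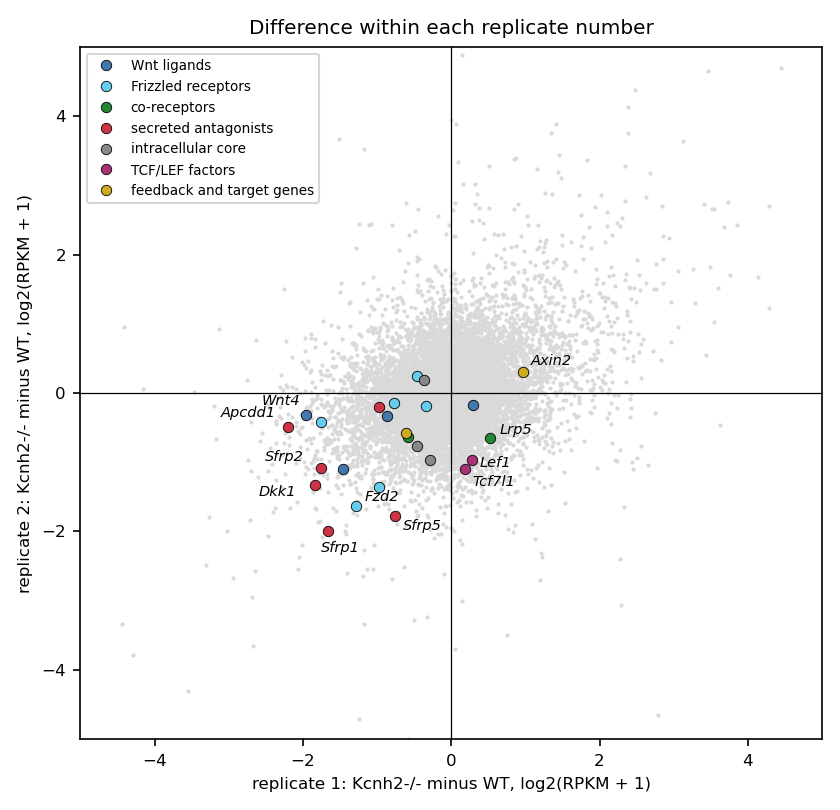
Difference in log2(RPKM + 1), Kcnh2-/- minus WT, within replicate 1 (horizontal) and within replicate 2 (vertical). Grey dots are all genes tested except 81 that lie beyond 5 on either axis, coloured dots are the 25 Wnt pathway genes by role, and 18 of these have both differences below 0.

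Replicates of one genotype also differed over these genes. Replicate 2 minus replicate 1 had a median over the 25 genes of -0.84 in WT and -0.35 in Kcnh2-/-, next to the group difference of -0.61. Over all genes tested these medians were 0.0710 and 0.0865. WT replicate 1 was the highest of the 4 libraries for 17 of the 25 genes, against 28.4% of all genes tested, and Kcnh2-/- replicate 2 the lowest for 13, against 21.5%. The plot of levels by library shows this order for many ligands, receptors and antagonists, while Wnt7b, Fzd7, Lrp5, Lef1, Tcf7l1, Apc, Gsk3b and Axin2 were highest in another library.

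**Figure D2:**
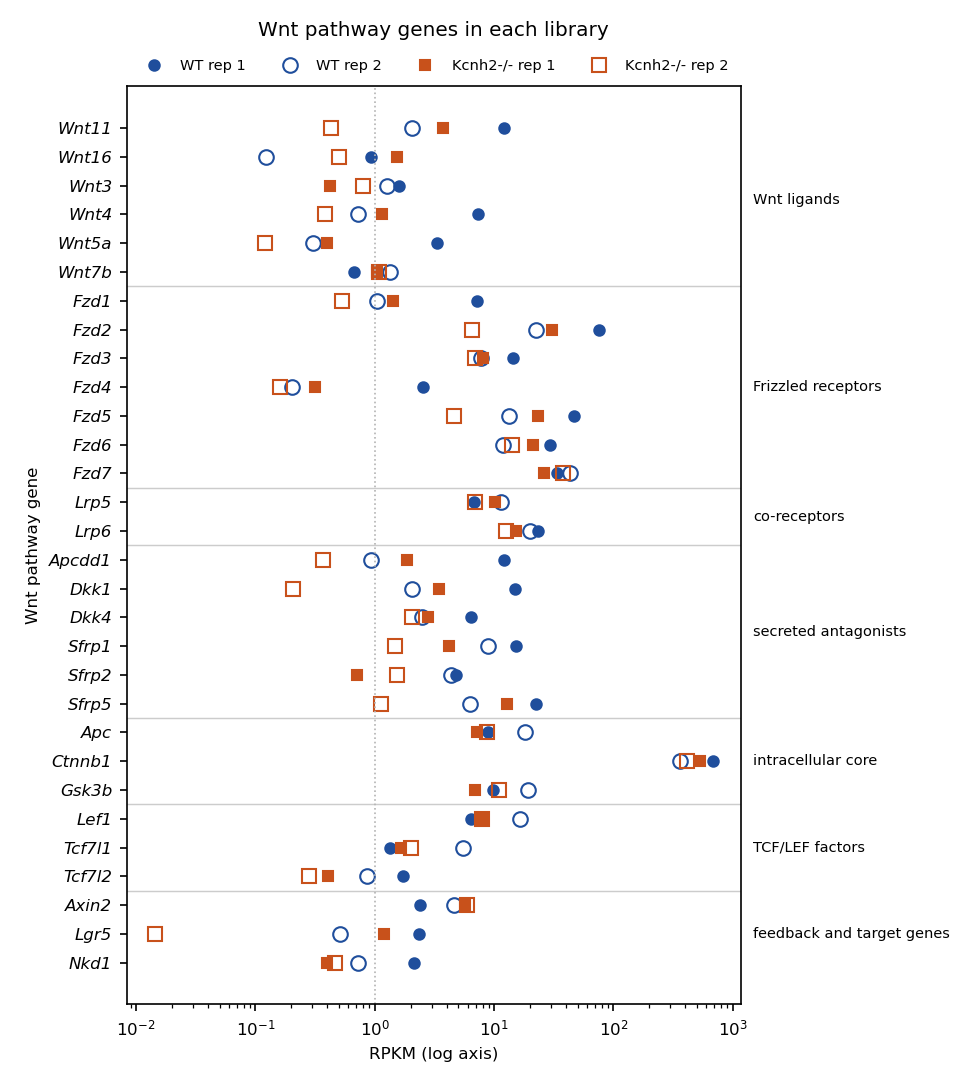
RPKM on a log axis for the 30 Wnt pathway genes with a mean of 1 RPKM or more in at least 1 group; circles are WT, squares Kcnh2-/-, filled symbols replicate 1, open symbols replicate 2, and the dotted line marks 1 RPKM. Ctnnb1 lies far to the right of the rest, at 364 to 684 RPKM, and Lgr5 reaches the lowest value, 0.0143.

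The genes nearest to the pathway's output were low and had no common direction. Axin2, a negative feedback component and widely used Wnt target (rn6 chromosome 10, 97212431 to 97239642), was at 2.39 and 4.62 RPKM in the WT libraries and at 5.66 and 5.94 in the Kcnh2-/- libraries. Both Kcnh2-/- libraries were above both WT libraries, by a margin smaller than the gap between the WT libraries. The difference on the log2(RPKM + 1) scale was 0.64 ± 0.39 (SE, limma adjusted p = 0.980), with 0.97 within replicate 1 and 0.31 within replicate 2. Nkd1, which encodes an inhibitor of Dishevelled, had the opposite order, at 2.11 and 0.720 RPKM in the WT libraries and 0.396 and 0.467 in the Kcnh2-/- libraries. It reached 1 RPKM in WT replicate 1 only and was not tested. The transcription factor gene Sp5 was below 1 RPKM throughout, at 0.885 and 0.137 in WT and 0.185 and 0.0222 in Kcnh2-/-. Lgr5, an R-spondin receptor gene, was at 2.35 and 0.516 RPKM in the WT libraries and at 1.20 and 0.0143 in the Kcnh2-/- libraries, so its groups overlapped and replicate 2 was the lower library in both genotypes. Rnf43, whose product removes Frizzled receptors from the surface, lay between 0.467 and 0.869 RPKM in all libraries. Only Axin2 and Lgr5 of these 5 genes passed the filter.

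The promoters of several of these target genes hold letters of the TCF/LEF motif, and they are shown beside levels that had no common order. RefSeq promoter windows (build GRCr8, 250 bases before to 30 bases after the annotated start) were found for 38 of the 53 genes. The letters CTTTGAT, a core of the TCF/LEF motif, searched on both strands as were the others below, occurred in 4 of the 38: Axin2, Nkd1, Sp5 and Tcf7. Of all 33469 promoter windows of this length, 3.42% held them. The related letters CTTTGTT occurred in Dkk1, Sp5 and Wnt3, against 5.66% of all windows. The shorter CTTTGA, which is part of the first motif, occurred in 8 of the 38, against 15.2% of all windows. Each window is printed 5′ to 3′ on the gene's strand, with CTTTGAT in capitals. Sfrp2, the gene of smallest p, is added for comparison, and its window holds none of the 3 sets of letters.
Axin2 (GRCr8 chr10:94398535-94398814, plus strand): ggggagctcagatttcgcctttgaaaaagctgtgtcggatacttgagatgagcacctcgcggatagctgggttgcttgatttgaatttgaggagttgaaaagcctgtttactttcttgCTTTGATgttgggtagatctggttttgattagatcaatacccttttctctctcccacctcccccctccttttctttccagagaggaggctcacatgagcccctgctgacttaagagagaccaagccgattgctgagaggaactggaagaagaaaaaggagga
Nkd1 (GRCr8 chr19:34722817-34723096, minus strand): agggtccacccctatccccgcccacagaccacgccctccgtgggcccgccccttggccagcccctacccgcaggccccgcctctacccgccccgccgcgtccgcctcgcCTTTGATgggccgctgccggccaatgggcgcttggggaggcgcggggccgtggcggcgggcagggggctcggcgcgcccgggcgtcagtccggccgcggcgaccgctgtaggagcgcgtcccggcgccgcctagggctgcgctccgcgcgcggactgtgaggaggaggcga
Sp5 (GRCr8 chr3:75682427-75682706, plus strand): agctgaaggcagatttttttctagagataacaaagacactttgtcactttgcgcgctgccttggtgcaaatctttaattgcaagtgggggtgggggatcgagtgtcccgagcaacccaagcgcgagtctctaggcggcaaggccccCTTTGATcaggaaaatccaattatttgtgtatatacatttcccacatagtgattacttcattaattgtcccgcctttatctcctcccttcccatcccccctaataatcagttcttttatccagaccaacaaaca
Tcf7 (GRCr8 chr10:36954250-36954529, minus strand): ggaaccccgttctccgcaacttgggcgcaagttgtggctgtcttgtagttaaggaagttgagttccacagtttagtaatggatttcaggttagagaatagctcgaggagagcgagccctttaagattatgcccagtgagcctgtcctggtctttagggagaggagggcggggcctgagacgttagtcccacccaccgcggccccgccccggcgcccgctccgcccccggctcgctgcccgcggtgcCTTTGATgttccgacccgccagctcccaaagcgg
Sfrp2 (GRCr8 chr2:171387286-171387565, plus strand): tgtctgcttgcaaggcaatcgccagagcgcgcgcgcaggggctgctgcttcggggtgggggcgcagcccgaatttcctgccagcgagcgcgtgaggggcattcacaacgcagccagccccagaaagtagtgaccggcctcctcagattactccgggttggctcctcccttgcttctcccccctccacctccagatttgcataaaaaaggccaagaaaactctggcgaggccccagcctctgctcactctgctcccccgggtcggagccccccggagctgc
The match begins 132 bases before the start in Axin2, 141 in Nkd1, 104 in Sp5 and 4 in Tcf7, where it spans the start. The 4 genes had different values across the libraries: Axin2 was highest in Kcnh2-/- replicate 2, Nkd1 and Sp5 in WT replicate 1, and Tcf7 in WT replicate 2. A match describes the letters in the window and does not show that a factor binds there.

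Lef1 was the highest of the TCF/LEF factors in all 4 libraries. Lef1, which mostly activates targets with β-catenin (rn6 chromosome 2, 236233238 to 236345056), was at 6.42 and 16.4 RPKM in the WT libraries and at 7.99 and 7.87 in the Kcnh2-/- libraries. WT replicate 2 stood apart, and the other 3 libraries lay close together. The log2 difference of -0.35 ± 0.49 (SE, limma adjusted p = 0.980) turned sign without that library: it was 0.28 within replicate 1 and -0.97 within replicate 2, and 0.27 without WT replicate 2. Tcf7l1, a repressor of pluripotency genes in embryonic stem cells (chromosome 4, 100491797 to 100660140), had the same pattern, at 1.34 and 5.49 RPKM in the WT libraries and 1.65 and 2.03 in the Kcnh2-/- libraries (log2 difference -0.46 ± 0.59, limma adjusted p = 0.980; 0.28 without WT replicate 2). Its locus overlaps those of 2 other genes. The ratio of Lef1 to Tcf7l1 was 4.81 and 2.99 in WT and 4.84 and 3.88 in Kcnh2-/-. Tcf7l2, at 1.72 and 0.864 RPKM in the WT libraries and 0.406 and 0.280 in the Kcnh2-/- libraries, was lower in both Kcnh2-/- libraries but too low to be tested. Tcf7, at 0.346 and 0.994 in WT and 0.132 and 0.421 in Kcnh2-/-, was below 1 RPKM in all libraries.

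Wnt ligand RNA was scarce and most abundant in WT replicate 1. Summed over the 19 ligands it came to 32.5 and 9.69 RPKM in the WT libraries and to 11.1 and 5.87 in the Kcnh2-/- libraries, so WT replicate 2 lay below Kcnh2-/- replicate 1. Ligands at 1 RPKM or more numbered 6 and 4 in the WT libraries and 4 and 2 in the Kcnh2-/- libraries. In bulk RNA, fewer cells of a type and less RNA per cell cannot be told apart. Wnt11, a ligand of cardiac and gastrulation movements that often signals without β-catenin (chromosome 1, 163797659 to 163813756), was the leading ligand in 3 of the 4 libraries, at 12.0 and 2.06 RPKM in the WT libraries and 3.73 and 0.426 in the Kcnh2-/- libraries. The groups overlapped, and the log2 difference was -1.28 ± 0.95 (SE, limma adjusted p = 0.980), with -1.46 and -1.10 within replicates 1 and 2. Leaving out WT replicate 1 gave -0.24, and leaving out Kcnh2-/- replicate 2 gave -0.42.

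Wnt3, the ligand that starts primitive streak formation in the mouse (chromosome 10, 91830653 to 91874793), had closer replicates, at 1.59 and 1.26 RPKM in the WT libraries and 0.420 and 0.794 in the Kcnh2-/- libraries. Its groups did not overlap, and the log2 difference was -0.60 ± 0.38 (SE, limma adjusted p = 0.980). Wnt3 passed the filter only through its WT libraries, so this direction was set by the filter. Wnt4, at 7.35 and 0.725 in WT and 1.15 and 0.381 in Kcnh2-/-, and the non-canonical ligand gene Wnt5a, at 3.33 and 0.303 in WT and 0.399 and 0.121 in Kcnh2-/-, were high in WT replicate 1 alone. Wnt7b did not share this order, at 0.668 and 1.35 RPKM in the WT libraries and 1.05 and 1.09 in the Kcnh2-/- libraries, and was the leading ligand of Kcnh2-/- replicate 2. Wnt16 was at 0.930 and 0.122 in WT and 1.55 and 0.505 in Kcnh2-/-. Wnt3a, another streak ligand, was at 0.315 and 1.29 in WT and 0.0915 and 0.538 in Kcnh2-/-, so that replicate 2 was the higher library in both genotypes.

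The other 12 ligands stayed below 1 RPKM in at least 3 libraries. Wnt2 and Wnt2b passed 1 RPKM in WT replicate 1 only, at 1.43 and 1.48 RPKM. Wnt7a lay between 0.829 and 1.01 RPKM. Wnt5b (0.208 to 0.533), Wnt6 (0.184 to 0.595) and Wnt10b (0.0837 to 0.773) were lower still. Wnt8a, at 0.285 and 0.179 RPKM in the WT libraries, was listed at 0 and at 0.0291 in Kcnh2-/-. Wnt1, Wnt8b, Wnt9a, Wnt9b and Wnt10a did not exceed 0.177 RPKM in any library. Wnt11, Wnt4 and Wnt5a made up most of the excess of WT replicate 1 in the plot of ligand and receptor sums.

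**Figure D3:**
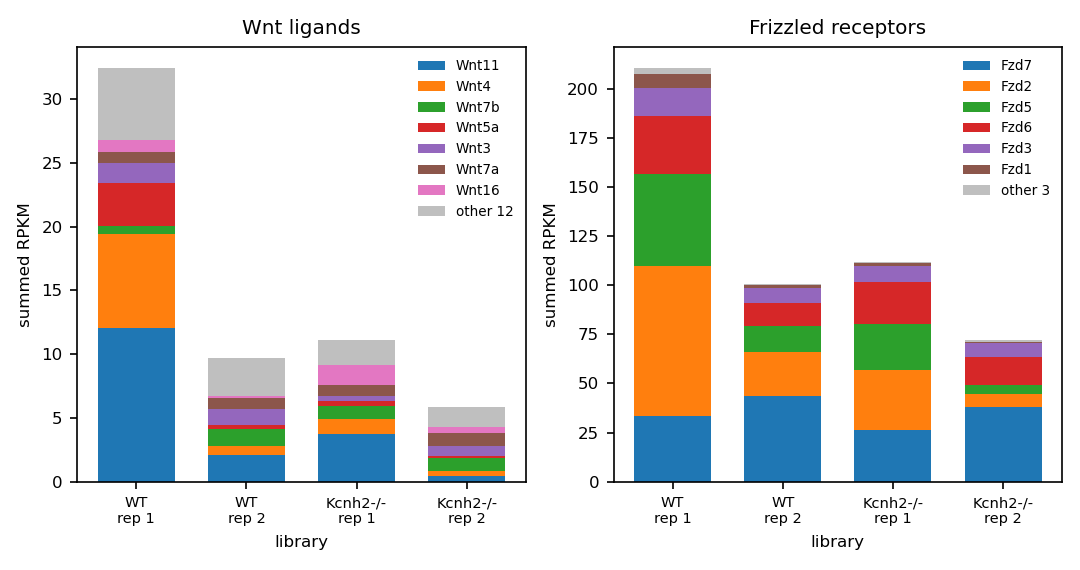
Summed RPKM of the 19 Wnt ligands (left) and the 9 Frizzled receptors (right) in each library, divided by gene, with axes starting at 0. WT replicate 1 has the highest bars, 32.5 and 211 RPKM, and the Fzd7 segment keeps a similar height while Fzd2 and Fzd5 shrink towards Kcnh2-/- replicate 2.

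Frizzled receptors were expressed at higher levels than the ligands, and the leading receptor differed between libraries. Their sum was 211 and 100.4 RPKM in the WT libraries and 112 and 72.1 in the Kcnh2-/- libraries. Fzd2 (chromosome 10, 90550146 to 90552057) was at 76.2 and 22.5 RPKM in the WT libraries and at 30.7 and 6.58 in the Kcnh2-/- libraries. WT replicate 2 lay below Kcnh2-/- replicate 1, so the groups overlapped, and the log2 difference was -1.46 ± 0.92 (SE, limma adjusted p = 0.980), with -1.28 and -1.63 within replicates 1 and 2. Leaving out WT replicate 1 gave -0.60, and leaving out Kcnh2-/- replicate 2 gave -0.43. Fzd5, a receptor of endoderm and eye, had the same order of libraries, at 46.7 and 13.4 in WT and 23.4 and 4.63 in Kcnh2-/-. Fzd7, the receptor most often linked to pluripotent cells (chromosome 9, 66305730 to 66308550), was at 33.5 and 43.4 RPKM in the WT libraries and 26.3 and 38.1 in the Kcnh2-/- libraries. It was higher in replicate 2 of both genotypes, with a log2 difference of -0.26 ± 0.31 (SE, limma adjusted p = 0.980), or 0.00112 without Kcnh2-/- replicate 1.

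As a share of all Frizzled RPKM, Fzd7 took 15.9% and 43.2% in WT and 23.5% and 52.9% in Kcnh2-/-. Fzd2 took 36.2% and 22.4% in WT and 27.4% and 9.13% in Kcnh2-/-. The ratio of Fzd7 to Fzd2 was therefore 0.440 and 0.858 in the replicate 1 libraries of WT and Kcnh2-/-, and 1.92 and 5.80 in the replicate 2 libraries: it was above 1 in replicate 2 and below 1 in replicate 1 of both genotypes, and higher in Kcnh2-/- within each number. Fzd6 was at 29.6 and 11.8 RPKM in the WT libraries and 21.3 and 14.2 in the Kcnh2-/- libraries, and Fzd3, a receptor of planar polarity, at 14.5 and 7.69 in WT and 8.10 and 6.86 in Kcnh2-/-. Fzd1 (7.18 and 1.05 against 1.43 and 0.534) and Fzd4 (2.52 and 0.204 against 0.315 and 0.161) were high in WT replicate 1 alone. Fzd9 lay between 0.310 and 0.964 RPKM, and Fzd8 was listed at 0 in all 4 libraries.

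Of the co-receptors, Lrp6 was the more abundant in all 4 libraries and Lrp5 showed no order by genotype. Lrp6 (chromosome 4, 168194926 to 168323751) was at 23.4 and 20.0 RPKM in the WT libraries and 15.3 and 12.5 in the Kcnh2-/- libraries. Both Kcnh2-/- libraries were below both WT libraries, and the log2 difference was -0.61 ± 0.27 (SE, limma adjusted p = 0.980), with -0.58 within replicate 1 and -0.63 within replicate 2. Lrp5 was at 6.80 and 11.5 RPKM in the WT libraries and 10.2 and 6.98 in the Kcnh2-/- libraries, 0.53 higher within replicate 1 and 0.65 lower within replicate 2 on the log2(RPKM + 1) scale.

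With all 4 libraries, the antagonists had the most negative median difference of the 7 roles. All 6 that were tested were lower in Kcnh2-/- within both replicate numbers, with a median log2 difference of -1.38, and none passed the adjusted threshold. The medians of the roles rest on only 2 to 6 tested genes each. The order of roles was lost when WT replicate 1 was left out. The medians were then -0.41 for the 6 antagonists, -1.06 for the 3 intracellular core genes and -1.08 for the 2 TCF/LEF factors tested. Leaving out Kcnh2-/- replicate 2 gave -0.73 for antagonists and -0.76 for the core. SFRP proteins bind Wnt ligands through a domain like that of the Frizzled receptors. Sfrp1 (chromosome 16, 73372006 to 73410777) was at 15.4 and 8.88 RPKM in the WT libraries and at 4.17 and 1.48 in the Kcnh2-/- libraries. All WT values were above all Kcnh2-/- values, and the log2 difference was -1.83 ± 0.52 (SE, limma adjusted p = 0.980), with -1.66 and -1.995 within replicates 1 and 2. Sfrp2 (chromosome 2, 182723853 to 182731764) had the closest WT replicates of the antagonists tested, at 4.76 and 4.36 RPKM, against 0.706 and 1.53 in Kcnh2-/-. On the log2 scale the difference was -1.42 ± 0.38 (SE, limma adjusted p = 0.980), with -1.76 and -1.09 within replicates 1 and 2. Leaving out each library in turn left the difference of Sfrp1 between -2.36 and -1.30 and that of Sfrp2 between -1.70 and -1.14.

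Sfrp5 (chromosome 1, 261442107 to 261446570) was the antagonist of highest mean level, at 22.3 and 6.30 RPKM in the WT libraries and 12.8 and 1.13 in the Kcnh2-/- libraries. Its groups overlapped, replicate 2 was the lower library in both genotypes, and the log2 difference was -1.27 ± 1.09 (SE, limma adjusted p = 0.980), moving to 0.0818 without Kcnh2-/- replicate 2. Dkk1, which blocks the LRP co-receptors and is itself a Wnt target, was at 14.9 and 2.03 RPKM in the WT libraries and 3.43 and 0.206 in the Kcnh2-/- libraries. It therefore varied more between replicates than between genotypes. Dkk4, another LRP blocker, was at 6.41 and 2.50 in WT and 2.79 and 2.04 in Kcnh2-/-. Apcdd1, a membrane-bound inhibitor, was at 12.2 and 0.926 RPKM in the WT libraries and 1.86 and 0.371 in the Kcnh2-/- libraries, with WT replicate 1 apart from the rest.

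The other 5 antagonists were below the filter and not tested. Notum, an enzyme that removes the lipid that Wnt proteins need, was at 0.577 and 0.597 RPKM in the WT libraries and at 0.435 in Kcnh2-/- replicate 1, and was listed at 0 in Kcnh2-/- replicate 2. Dkk3 lay between 0.398 and 0.953 RPKM, and the ligand-binding inhibitor Wif1 between 0.193 and 0.916. Dkk2 did not exceed 0.217, nor Sfrp4 0.154.

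**Figure D4:**
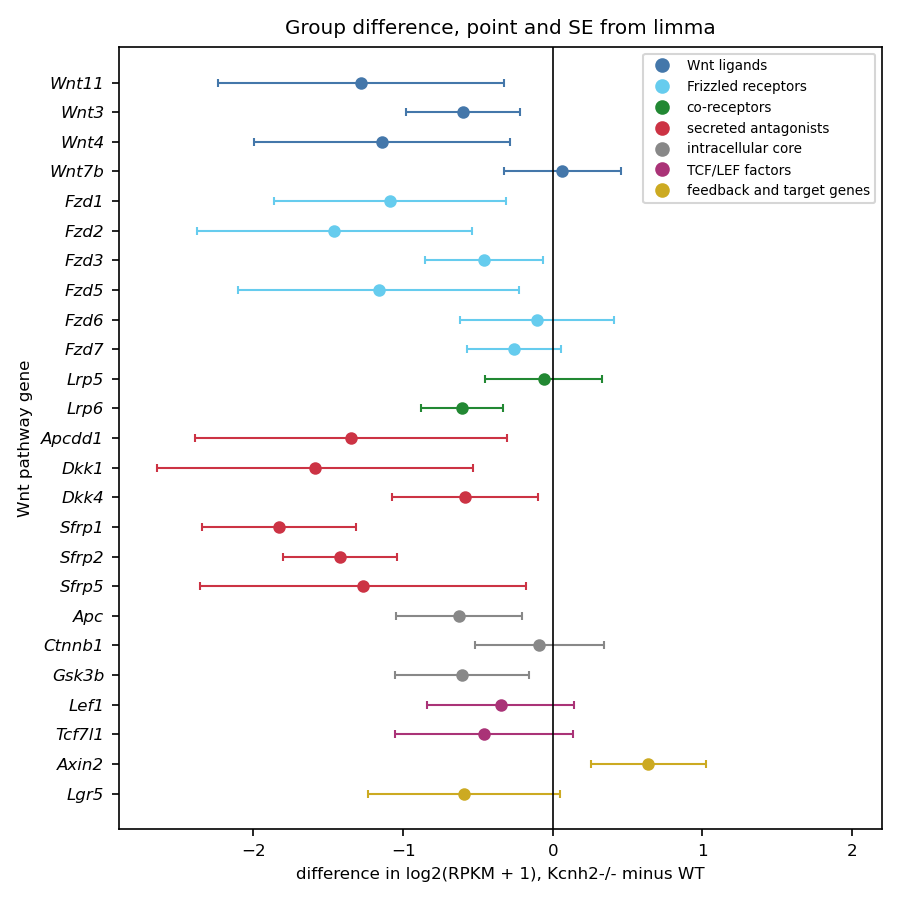
Difference in log2(RPKM + 1), Kcnh2-/- minus WT, for the 25 Wnt pathway genes tested; points are limma estimates and bars their SE, with 2 libraries per group. Only Wnt7b and Axin2 lie right of 0, and Sfrp1, at -1.83, lies farthest left.

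The intracellular core was carried by β-catenin. Ctnnb1 (chromosome 8, 129617811 to 129627372) was at 684 and 364 RPKM in the WT libraries and 530 and 414 in the Kcnh2-/- libraries, between 60.7% and 74.4% of the RPKM of all 53 genes in a library. The Kcnh2-/- values lay between those of WT, and the log2 difference was -0.0902 ± 0.43 (SE, limma adjusted p = 0.989), turning to 0.36 without WT replicate 1 and to 0.0864 without Kcnh2-/- replicate 2. Apc, the scaffold of the destruction complex (chromosome 18, 27047381 to 27105531), was at 8.97 and 18.1 RPKM in the WT libraries and at 7.18 and 8.76 in the Kcnh2-/- libraries. The lower WT library was only slightly above the higher Kcnh2-/- library, and the log2 difference was -0.63 ± 0.42 (SE, limma adjusted p = 0.980), or -0.16 without WT replicate 2. Gsk3b, the kinase that CHIR9902 inhibits, was at 9.80 and 19.3 in WT and 6.86 and 11.0 in Kcnh2-/-. Like Lef1 and Tcf7l1, Apc and Gsk3b were highest in WT replicate 2. The Gsk3b locus overlaps 2 other genes. RNA levels say nothing of kinase activity or of the amount of β-catenin protein.

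Other genes of the pathway also had mostly negative differences, with no call. In 6 lists of further Wnt genes, 53 of 81 rows passed the filter, limma called 0 at an adjusted p under 0.05, and 41 had a negative log2 difference, against 49.6% of all genes tested. Groups did not overlap for 8 lower and 2 higher genes of the 53, no more often than the 15.3% and 16.7% among all genes tested. Wls, which carries Wnt proteins to the cell surface, was at 87.0 and 9.78 RPKM in the WT libraries and 17.7 and 10.6 in the Kcnh2-/- libraries, again with WT replicate 1 apart. Lgr4, an R-spondin receptor, was at 28.0 and 24.6 RPKM in the WT libraries and 15.0 and 24.7 in the Kcnh2-/- libraries. The R-spondin genes Rspo1, Rspo2 and Rspo4 were at most at 0.198 RPKM, and Rspo3 was at 1.14 in WT replicate 1 and at most 0.124 elsewhere.

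Among surface proteins, Tdgf1, a Nodal co-receptor that can also bind Wnt receptors, was at 41.3 and 226 RPKM in the WT libraries and 240.3 and 409 in the Kcnh2-/- libraries (limma adjusted p = 0.980). Kremen1, a DKK receptor, was at 2.98 and 2.15 in WT and 1.34 and 1.51 in Kcnh2-/-. Of the cytoplasmic list, the tankyrase gene Tnks, whose product promotes AXIN turnover, had the smallest p, at 32.1 and 46.7 RPKM in the WT libraries and 17.9 and 21.2 in the Kcnh2-/- libraries (log2 difference -0.96 ± 0.30, limma adjusted p = 0.980). The casein kinase gene Csnk1a1, at 255 and 206 RPKM against 229 and 196, and the Dishevelled gene Dvl2, at 41.0 and 59.0 against 46.0 and 55.2, overlapped between groups. Of the nuclear list, the corepressor gene Tle1 was at 8.50 and 7.07 RPKM in the WT libraries and 4.34 and 4.92 in the Kcnh2-/- libraries, and Hbp1 at 48.7 and 51.1 against 37.6 and 39.5. The planar polarity gene Vangl2 was at 8.76 and 23.6 in WT and 7.32 and 4.75 in Kcnh2-/-.

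Genes that respond to Wnt in other settings gave no common direction. Ccnd1, which encodes cyclin D1, was at 24.0 and 19.7 RPKM in the WT libraries and 35.3 and 26.7 in the Kcnh2-/- libraries (limma adjusted p = 0.980), higher without overlap like Axin2. The streak gene T (brachyury) was at 13.9 and 3.30 in WT and 4.96 and 0.290 in Kcnh2-/-, and Id2 was at 15.7 and 6.74 against 6.90 and 17.5. Of the 17 rows of the cytoplasmic list and the 16 of the Wnt-responsive list, 13 and 6 passed the filter.

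The summed markers of endoderm, muscle, primitive streak, fibroblasts and trophoblast, like the summed ligands, Frizzled receptors and antagonists, were highest in WT replicate 1 and lowest in Kcnh2-/- replicate 2, while neural markers were lowest in WT replicate 2. Some genes went the other way, given here as WT against Kcnh2-/-. Apoa2 (endoderm), at 2.10 and 14.7 against 12.8 and 23.4 RPKM, made up most of the endoderm sum in Kcnh2-/- replicate 2. Eomes (streak and trophoblast) was higher in Kcnh2-/- without overlap, at 8.70 and 9.05 against 11.5 and 9.79. The fibroblast genes Col1a1 and Dcn were highest in Kcnh2-/- replicate 1. Col1a1 was at 0.560 and 0.227 against 1.40 and 0.0953, and Dcn at 0.741 and 0.505 against 1.42 and 0.104. Tfap2c (trophoblast), at 2.26 and 20.9 against 13.9 and 20.4, was lowest in WT replicate 1. So was Elf5 (trophoblast), at 0.0753 and 2.11 against 0.472 and 0.610. WT replicate 1 was the highest library for 10 of 12 endoderm rows, 5 of 7 fibroblast rows and 4 of 8 trophoblast rows. The definitive and visceral endoderm list (12 of 12 with a row) summed to 221 and 70.1 RPKM in the WT libraries and to 63.2 and 27.0 in the Kcnh2-/- libraries. Its leading genes in WT replicate 1 were Cxcr4, at 58.1 and 10.00 against 6.71 and 0.726, and Cer1, an antagonist of Nodal, at 52.2 and 28.8 against 21.4 and 0.144. Hnf4a and Ttr were listed at 0 in Kcnh2-/- replicate 2, and Afp in WT replicate 2. Cardiac and smooth muscle markers (8 of 8) summed to 2058 and 106 RPKM in the WT libraries and 346 and 28.2 in the Kcnh2-/- libraries, mostly from Tagln. Primitive streak and early mesoderm markers (12 rows for 11 of 12 symbols) summed to 40.2 and 21.1 in WT and 23.0 and 11.4 in Kcnh2-/-, with Msgn1 at 0 in every library and Lhx1 at 0 in Kcnh2-/- replicate 2. Fibroblast markers, included because feeder cells can persist (7 of 8), summed to 19.2 and 1.47 in WT and 4.83 and 0.445 in Kcnh2-/-, and Col3a1 and Lum were at 0 in WT replicate 2. In WT replicate 1 the fibroblast sum was led by Col3a1, at 9.41 RPKM, and Postn, at 6.49.

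The naive pluripotency list was lowest in WT replicate 1 by its sum, and its genes had no common direction between the genotypes. Over 9 of its 10 genes it summed to 39.3 and 340.03 RPKM in the WT libraries and 147 and 552 in the Kcnh2-/- libraries, with Nanog at 2.50 and 72.6 in WT and 8.69 and 74.1 in Kcnh2-/-. Most of the sum came from Dppa3, at 26.1 and 191 RPKM in the WT libraries and 117 and 393 in the Kcnh2-/- libraries. Of the 8 naive genes tested, 4 had a negative log2 difference, and their median was 0.94 within replicate 1 and -0.0669 within replicate 2. Tfcp2l1, chosen after its values were seen, was highest in WT replicate 2, at 0.8001 and 21.2 against 2.12 and 8.25. Trophoblast markers (8 of 8) summed to 1921 and 446 in WT and 841 and 343 in Kcnh2-/-, mostly from the keratin genes Krt8 and Krt18, and neural markers (6 of 7) to 52.5 and 13.8 against 22.5 and 17.9, led by Tubb3. Without WT replicate 1, 21 of the 25 Wnt pathway genes had a negative log2 difference, a count with no share of all genes to set it against. The members given with a test ran from Sfrp1 (-1.46) to Ctnnb1 (0.36). Between them were Sfrp2 (-1.37), Lrp6 (-0.50), Sfrp5 (-0.43) and Wnt11 (-0.24). Tcf7l1 (-1.20) and Apc (-1.10) were highest in WT replicate 2, the only WT library left in that fit. The part of these cell types in the differences of Wnt pathway genes was not tested, with or without that library.

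**Figure D5:**
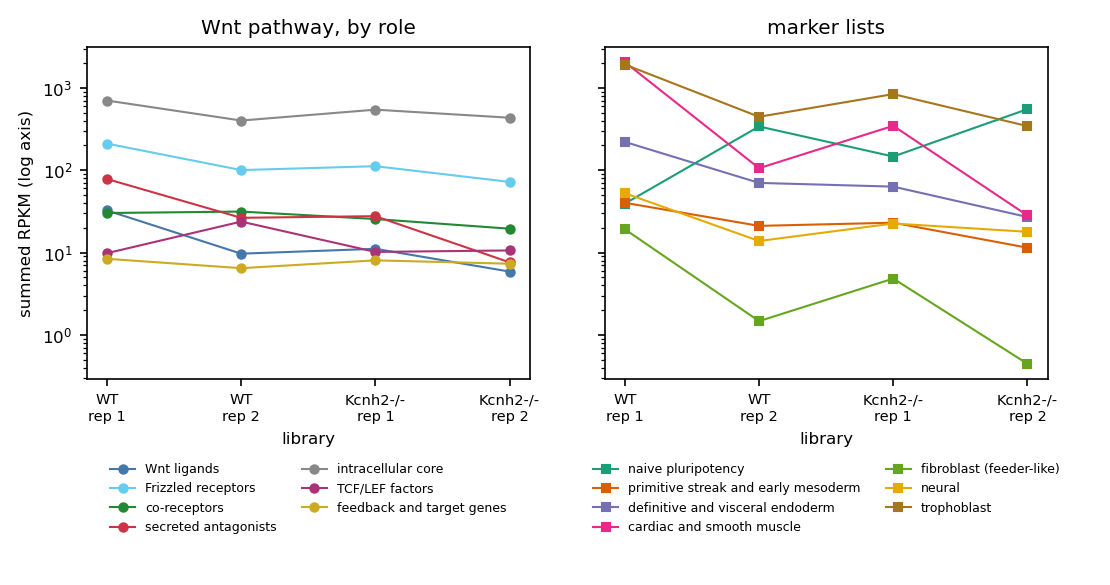
Summed RPKM on a log axis in each library for the Wnt pathway by role (left) and for the marker lists (right); lines only join the points of one list. Antagonists run from 78.2 RPKM in WT replicate 1 to 7.60 in Kcnh2-/- replicate 2, in the order of libraries of the muscle list, while feedback and target genes stay between 6.46 and 8.39.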

How the data were processed

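Total RNA from 4 libraries (2 WT, 2 Kcnh2-/-) was depleted of ribosomal RNA, made into strand-marking TruSeq libraries and sequenced as paired 100 bp reads, per the labels' protocols. TopHat2 2.0.13 and Cufflinks 2.2.1 with the rn6 genome are named in the submitters' processing notes. The sources used here do not name the annotation. Each deposited table holds 1 library's RPKM, which the authors scaled library by library. Of the 53 Wnt pathway genes, 7 have a locus that overlaps another gene (Gsk3b, Lgr5, Rnf43, Wnt2b, Tcf7l1, Notum and Sfrp4), and how reads were divided there is not known. All 53 symbols matched a protein-coding gene in RefSeq (GRCr8, names only).

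The groups were compared by limma 3.58.1 (R 4.3.3), two-sided, with a trended eBayes prior and no replicate term, on log2(RPKM + 1). The 12355 genes tested reached 1 RPKM in at least 2 libraries, and p-values were adjusted over all of them by Benjamini-Hochberg, with a threshold of 0.05. This scale understates changes of low genes. With 2 against 2, the smallest p of an exact two-sided permutation test is 0.333. The fit was tested on simulated data with a difference between replicate numbers: without a replicate term it missed most of the changes put in, the smaller ones entirely, and with one it found more but made more false calls than the threshold allows. A gene not called is therefore not shown to be unchanged. The members, lists, rules and alternatives were chosen with earlier results of these data known. Members at a mean of 1 RPKM or more in either group are given by library; a test is printed for those with groups that do not overlap, an unadjusted p under 0.05, or the largest difference or highest mean of their role. From the other lists, some but not all of the genes with the smallest p or the highest mean are named. Rspo1 to Rspo4, Apoa2, Col1a1, Dcn, Elf5 and the markers at 0 were chosen after their values were seen. Promoter letters were searched on both strands with Python 3.11.15, pandas 2.3.3 and numpy 2.4.6, and plots made with matplotlib 3.10.9. The 13 alternatives covered the pseudocount, filter, scaling, protein-coding genes alone, variance trend, a replicate block and each library left out.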

Additional observations from a re-analysis of the deposited data

How the results depend on the processing

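No alternative made limma call a Wnt pathway gene: 0 of the tested members passed in all 13, and the smallest adjusted p among the 13 members given with a test was 0.0504 (Sfrp1), with a replicate block and protein-coding genes alone. Sfrp1, Sfrp2, Lrp6, Wnt11, Fzd2, Apc and Axin2 kept their direction in the alternatives in which they were tested, but mostly this was fixed in advance. The filter, protein-coding, variance trend and replicate block settings leave the log2 difference of a gene as it is. For Sfrp1, Sfrp2, Lrp6, Apc and Axin2, whose groups do not overlap, neither the pseudocount nor leaving out a library can turn the sign. Sfrp1 and Axin2 also pass the filter at 5 RPKM only through the group where they are higher. With a replicate block, limma called 14 genes higher and 14 lower over all genes, and with the block and protein-coding genes alone 57 and 25, with no Wnt gene among them. Members at an unadjusted limma p under 0.05 numbered 8 and 10 in these fits. The share of all genes at that p was not taken there, and the block made too many false calls on simulated data. The 2 counts are therefore not read as a result about the members. Deviations of same-numbered libraries from their group means correlated at 0.38 over the 12355 genes tested and 0.74 over the 25 Wnt pathway genes, but 2 pairs cannot show that the numbers pair the samples. Genes called over the whole table (main 4 higher, 10 lower) were 7 higher with a pseudocount of 0.1, 0 higher and 1 lower with no filter on low values, 1 higher with median-of-ratios scaling, 8 higher with quantile normalization, and 0 higher and 3 lower both with protein-coding genes alone and without the variance trend. Leaving out each library gave 0 to 9 higher and 3 to 10 lower. Members with groups that do not overlap (main 1 higher, 5 lower) were 2 higher and 9 lower with no filter, 3 lower with the filter at 5 RPKM, and, since a group of 1 library overlaps less easily, 1 to 5 higher and 7 to 18 lower with each library left out. Shares over all genes were not taken in these settings, so the counts have no background and are not read as a result. The median log2 difference of the ligands (main -0.87) was -1.41 with a pseudocount of 0.1 and -0.15 with no filter, which adds 15 low ligands, and ran from -1.49 (without WT replicate 2) to -0.21 (without WT replicate 1). The antagonist median (main -1.38) ran from -2.15 to -0.41 in the same order. With each library left out, the TCF/LEF median (main -0.40) ran from -1.08 to 0.27 and that of feedback and target genes from -0.24 to 0.29. The median of feedback and target genes (main 0.0230) was -0.44 with a pseudocount of 0.1, -0.41 with no filter and 0.64 with the filter at 5 RPKM, where Axin2 alone is left and its sign is set by the filter. Direction turned with a library left out for Fzd7 (-0.52 to 0.00112), Sfrp5 (-2.62 to 0.0818), Ctnnb1 (-0.54 to 0.36), Lef1 (-0.96 to 0.27) and Tcf7l1 (-1.20 to 0.28). Without stated causes above, the cause was not tested. Absolute depth is unknown, so the counting error of members near 1 RPKM cannot be given.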
